A study of Mus musculus with 17 samples.

Results

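The hypoxia-inducible factors (HIF), the proteins that sense oxygen for them and a set of their target genes outside glycolysis and VEGF signaling were followed in newborn mice that lack 1 or both copies of the osteocalcin gene *Ocn*. They make up 42 genes of 55359 in the deposited table, and were picked as rows whose identifier carries one of 42 symbols of a fixed list. All 42 were found. RNA was sequenced from testes and forebrains of male pups at postnatal day 1 from the *Ocn*GK strain, a 129/SvEv line whose osteocalcin gene was deleted by gene targeting. There were 8 testes, 2 from WT, 3 from *Ocn*+/− and 3 from *Ocn*−/− pups, and 9 forebrains, 3 of each genotype. The paper's legend of its forebrain figure gives 2 WT forebrains, while the deposited table holds 3, all of which were used here. The WT pups were born to WT mothers, and both kinds of mutant pup to *Ocn*−/− mothers, so that pup genotype, maternal genotype and litter cannot be told apart between WT and mutant pups. *Ocn*+/− and *Ocn*−/− pups share the maternal genotype. The labels call the brain tissue hippocampus and the study's methods call it forebrain, the name used here.

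HIF is a pair of proteins, an alpha subunit (*Hif1a*, *Epas1* or *Hif3a*) and a beta subunit (*Arnt* or *Arnt2*), that binds a short DNA element near its target genes. When oxygen is plentiful the prolyl hydroxylases *Egln1*, *Egln2* and *Egln3* mark the alpha subunit, the ubiquitin ligase component *Vhl* binds the mark and the subunit is degraded, while *Hif1an* hydroxylates another site and blocks its partners. Alpha subunits are thus controlled largely as proteins, which RNA does not measure. The targets studied here act in mitochondria, in collagen maturation, in chromatin, in pH control and in glycogen and lipid handling, and several of them, such as *Egln3* and *Bnip3*, are widely used as readouts of HIF activity.

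Counts of a testis summed to 7302401 to 8289015, and those of a forebrain to 6518151 to 14621584. The lowest total was that of forebrain WT 3, which also had the highest share of counts from mitochondrial genes (5.34%, against 2.40% to 3.18% in the other forebrains) and the lowest mean correlation with the other forebrains (0.9658, against 0.9768 to 0.9803). Calls that are lost without it are given with both values. Osteocalcin RNA could not check the genotypes, as a testis held 0 to 2 counts of *Bglap* and a forebrain 0 to 5, and *Bglap2* had 0 in all 17 libraries, which allows up to 3 counts. The libraries matched their labels as testis or brain: summed Leydig cell markers reached 1691 to 1772 CPM (the CPM of edgeR, a count relative to the library size after TMM scaling) in WT testes and 10.1 to 16.2 in WT forebrains, and summed neuron markers 25.2 to 30.1 and 2654 to 3062 CPM. These markers do not tell brain regions apart. The labels do not tie a testis to a forebrain, and p-values measure the spread between these pups.

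Of the HIF target genes that act in mitochondria, 4 of 5 were called lower than WT in *Ocn*+/− and 3 of 5 in *Ocn*−/− testes, and of those that act on collagen 3 of 6 and 6 of 6. *Bnip3*, a receptor that hands damaged mitochondria to autophagy, stood at 0.291 of its WT level in *Ocn*+/− and 0.342 in *Ocn*−/− testes, and *P4ha1*, a catalytic subunit of collagen prolyl 4-hydroxylase, at 0.359 and 0.436. In *Ocn*+/− testes 13 of the 42 genes were lower and 2 higher at an adjusted p under 0.05 (edgeR's quasi-likelihood test over 16361 genes, of which 4.36% were called lower and 3.89% higher). In *Ocn*−/− testes 14 were lower and 1 higher, against 3.09% and 2.54% of all genes. The median log2 fold change of the 42 genes was -0.45 in both mutant genotypes, and that of all genes tested was 0.0066 and -0.0064. Below 0 stood 35 and 33 of the 42. Both mutant genotypes are compared with the same 2 WT testes, so the agreement of their values is not independent. In bulk tissue, fewer cells of a type and less RNA per cell cannot be told apart.

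**Figure D1:**
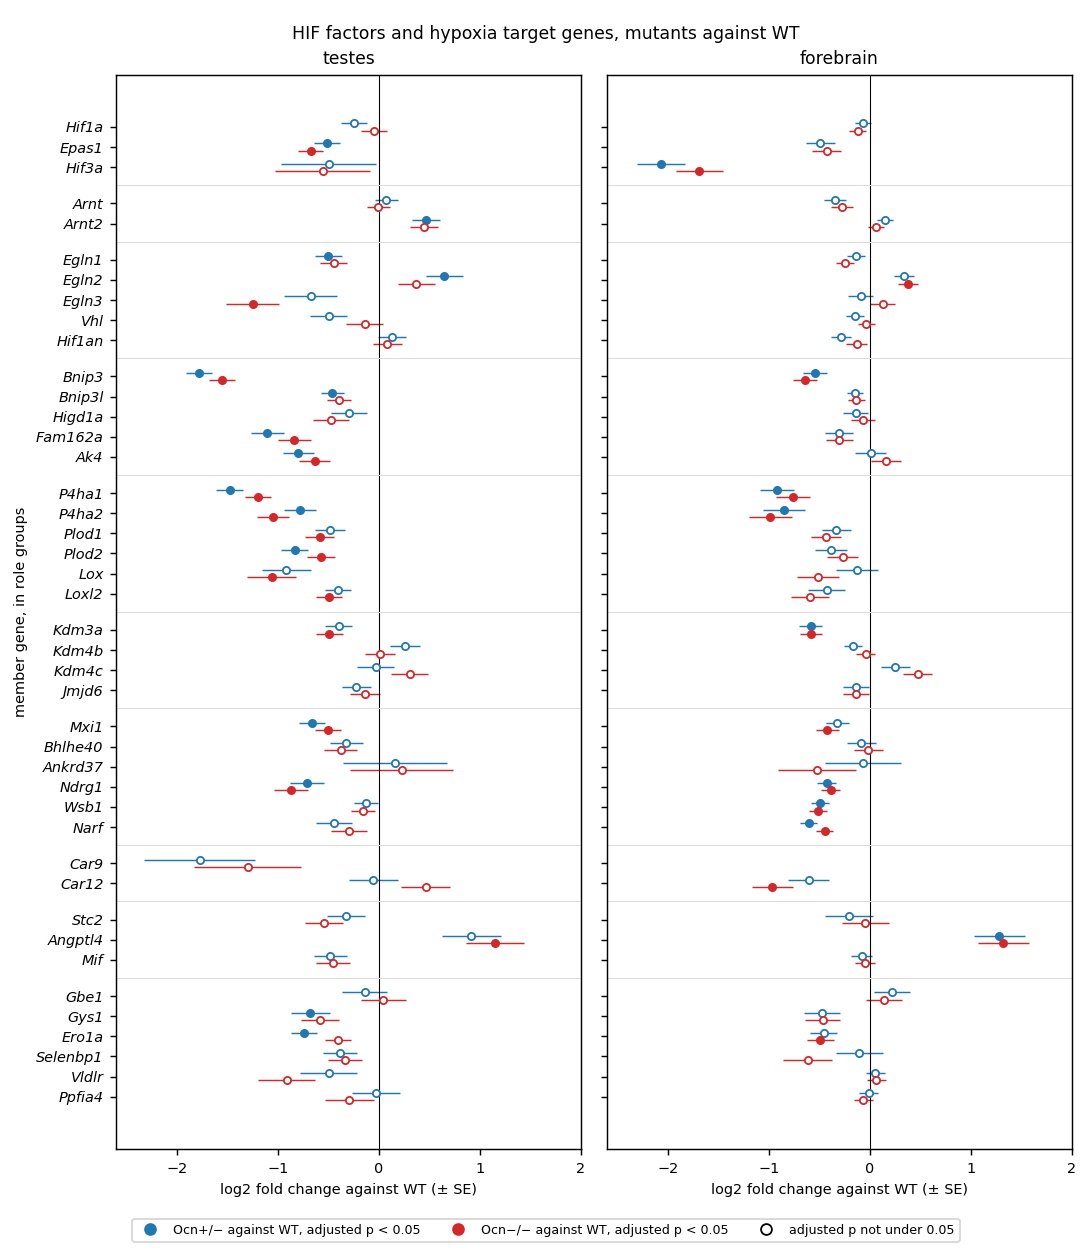
Log2 fold change (± SE) of each of the 42 genes in Ocn+/− (blue) and Ocn−/− (red) tissue against WT, testes on the left and forebrain on the right, with genes in the order of their roles. Filled circles passed an adjusted p of 0.05, which 13 lower and 2 higher genes of Ocn+/− testes did, and in forebrain Hif3a lies farthest to the left; Car9 was not tested in forebrain.

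Of the 5 HIF subunits, *Epas1* fell in both mutant genotypes in testes and *Arnt2* rose in *Ocn*+/− testes. *Epas1* (chromosome 17, 87061087 to 87140838, GRCm39), an alpha subunit prominent in endothelium, stood at 98.1 and 101 CPM in WT, 69.7, 62.5 and 77.8 CPM in *Ocn*+/− and 62.4, 58.2 and 66.5 CPM in *Ocn*−/− testes. Every mutant testis lay below both WT testes. The log2 fold change was -0.51 ± 0.13 in *Ocn*+/− (adjusted p = 0.0247) and -0.68 ± 0.13 in *Ocn*−/− (adjusted p = 0.00648). *Hif1a* (chromosome 12, 73948149 to 73996321), the alpha subunit found in most cells, had 292 ± 8.65 CPM (SD, n = 2) in WT, 247 ± 6.63 CPM (SD, n = 3) in *Ocn*+/− and 283 ± 41.8 CPM (SD, n = 3) in *Ocn*−/− testes. The *Ocn*+/− testes all lay below both WT testes, while the *Ocn*−/− testes overlapped them, and its log2 fold changes of -0.24 ± 0.13 in *Ocn*+/− (adjusted p = 0.25) and -0.05 ± 0.13 in *Ocn*−/− (adjusted p = 0.866) did not pass the test. *Hif3a* (chromosome 7, 16764918 to 16796352), whose products include forms that restrain the other alpha subunits, varied widely, at 63.0 and 85.9 CPM in WT, 46.1, 64.5 and 47.9 CPM in *Ocn*+/− and 82.4, 42.7 and 26.7 CPM in *Ocn*−/− testes, and its genotypes overlapped. Its log2 fold changes were -0.49 ± 0.47 in *Ocn*+/− (adjusted p = 0.567) and -0.55 ± 0.47 in *Ocn*−/− (adjusted p = 0.546). With 1 testis left out they ran from -0.69 to -0.23 and from -1.08 to -0.25. The value of *Ocn*−/− testes passed the threshold in 1 of 16 alternatives. Of the beta subunits, *Arnt*, the widely expressed partner, had log2 fold changes of 0.07 ± 0.11 (adjusted p = 0.729) and -0.0035 (SE 0.11, adjusted p = 0.99). *Arnt2*, the partner typical of neural tissue, rose in *Ocn*+/− testes by 0.47 ± 0.14 (adjusted p = 0.0464) from 66.4 ± 11.1 CPM (SD, n = 2) to 92.0 ± 8.42 CPM (SD, n = 3), and its value in *Ocn*−/− testes was 0.45 ± 0.14 (adjusted p = 0.0666).

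Among the oxygen sensors, *Egln1* fell and *Egln2* rose in *Ocn*+/− testes, and *Egln3* fell in *Ocn*−/− testes. *Egln1*, the main hydroxylase of *Hif1a* in most tissues and itself a HIF target, fell in *Ocn*+/− testes from 110.1 ± 2.63 CPM (SD, n = 2) to 77.8 ± 9.95 CPM (SD, n = 3), and its log2 fold changes were -0.50 ± 0.13 in *Ocn*+/− (adjusted p = 0.0317) and -0.45 ± 0.13 in *Ocn*−/− (adjusted p = 0.0595). *Egln3*, a hydroxylase whose RNA rises strongly in low oxygen, stood at 11.9 and 14.6 CPM in WT, 7.04, 9.21 and 8.66 CPM in *Ocn*+/− and 5.69, 6.63 and 4.42 CPM in *Ocn*−/− testes. The 6 mutant testes were all below WT. Its log2 fold changes were -0.68 ± 0.26 in *Ocn*+/− (adjusted p = 0.11) and -1.25 ± 0.26 in *Ocn*−/− (adjusted p = 0.0119). *Egln2*, the hydroxylase that is not known as a HIF target, had log2 fold changes of 0.65 ± 0.18 in *Ocn*+/− (adjusted p = 0.0406) and 0.37 ± 0.18 in *Ocn*−/− (adjusted p = 0.235). For *Vhl* the log2 fold changes were -0.50 ± 0.18 in *Ocn*+/− (adjusted p = 0.102) and -0.14 ± 0.18 in *Ocn*−/− (adjusted p = 0.692), and for *Hif1an* they were 0.13 ± 0.14 in *Ocn*+/− (adjusted p = 0.6) and 0.09 ± 0.14 in *Ocn*−/− (adjusted p = 0.754), none of which passed the test.

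Of the 5 mitochondrial targets, 4 were called lower in *Ocn*+/− and 3 in *Ocn*−/− testes. *Bnip3* (chromosome 7, 138490690 to 138511253) was measured at 139 and 177 CPM in WT, 43.7, 47.1 and 46.7 CPM in *Ocn*+/− and 51.1, 58.0 and 52.5 CPM in *Ocn*−/− testes. All 6 mutant testes fell below the lower WT testis, with no more than 58.0 CPM. On the log2 scale the change was -1.78 ± 0.13 in *Ocn*+/− (adjusted p = 9.93e-07) and -1.55 ± 0.13 in *Ocn*−/− (adjusted p = 7.29e-06). Its paralog *Bnip3l*, also a mitophagy receptor, had log2 fold changes of -0.46 ± 0.12 in *Ocn*+/− (adjusted p = 0.0258) and -0.39 ± 0.12 in *Ocn*−/− (adjusted p = 0.0587). *Fam162a* (chromosome 16, 35863243 to 35892123), a mitochondrial protein induced in low oxygen, was measured at 46.0 and 57.4 CPM in WT, 21.2, 25.2 and 25.7 CPM in *Ocn*+/− and 28.7, 31.9 and 26.4 CPM in *Ocn*−/− testes, again without overlap. Against WT its log2 fold change was -1.10 ± 0.16 in *Ocn*+/− (adjusted p = 0.00125) and -0.83 ± 0.16 in *Ocn*−/− (adjusted p = 0.00713). *Ak4* (chromosome 4, 101276265 to 101324968), an adenylate kinase of the mitochondrial matrix, was measured at 48.0 and 55.9 CPM in WT, 27.0, 33.3 and 29.4 CPM in *Ocn*+/− and 31.3, 33.4 and 35.8 CPM in *Ocn*−/− testes. Here too the 2 WT testes were the highest. This gave a log2 fold change of -0.80 ± 0.15 in *Ocn*+/− (adjusted p = 0.0063) and -0.63 ± 0.15 in *Ocn*−/− (adjusted p = 0.023). *Higd1a*, a factor of the respiratory chain, had values of -0.29 ± 0.18 and -0.47 ± 0.18 that did not pass the test (adjusted p = 0.321 and 0.129).

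All 6 collagen-modifying targets lay below WT in both mutant genotypes, and 3 of them were called in *Ocn*+/− and all 6 in *Ocn*−/− testes. *P4ha1* (chromosome 10, 59159092 to 59209126) was measured at 146 and 178 CPM in WT, 64.0, 53.1 and 57.1 CPM in *Ocn*+/− and 67.0, 77.7 and 66.8 CPM in *Ocn*−/− testes. The mutant values were less than those of both WT testes by a wide margin. The change amounted, in log2 units, to -1.48 ± 0.13 in *Ocn*+/− (adjusted p = 6.91e-06) and -1.20 ± 0.13 in *Ocn*−/− (adjusted p = 6.16e-05). *P4ha2* (chromosome 11, 53981553 to 54022494), the second catalytic subunit of the same enzyme family, was measured at 40.04 and 43.5 CPM in WT, 24.4, 24.4 and 24.2 CPM in *Ocn*+/− and 22.2, 19.8 and 18.7 CPM in *Ocn*−/− testes. The log2 fold change was -0.78 ± 0.16 in *Ocn*+/− (adjusted p = 0.00862) and -1.05 ± 0.16 in *Ocn*−/− (adjusted p = 0.00131). *Plod2* (chromosome 9, 92424119 to 92490494), the lysyl hydroxylase that shapes collagen cross-links, was measured at 173 and 182 CPM in WT, 99.2, 108 and 92.2 CPM in *Ocn*+/− and 105, 142 and 112 CPM in *Ocn*−/− testes, with 1 *Ocn*−/− testis closer to WT than the others. On the log2 scale the change was -0.83 ± 0.14 in *Ocn*+/− (adjusted p = 0.00254) and -0.57 ± 0.14 in *Ocn*−/− (adjusted p = 0.0228). In *Ocn*−/− testes *Plod1*, another lysyl hydroxylase, fell by 0.59 on the log2 scale (adjusted p = 0.0285), and without WT 2 its value was -0.37 (adjusted p = 0.479). *Lox*, the lysyl oxidase that starts collagen cross-linking, fell there from 449.5 ± 59.2 CPM (SD, n = 2) to 216 ± 42.9 CPM (SD, n = 3) (log2 fold change -1.06 ± 0.24, adjusted p = 0.0405). Its relative *Loxl2* fell there by 0.49 on the log2 scale (adjusted p = 0.0362).

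**Figure D2:**
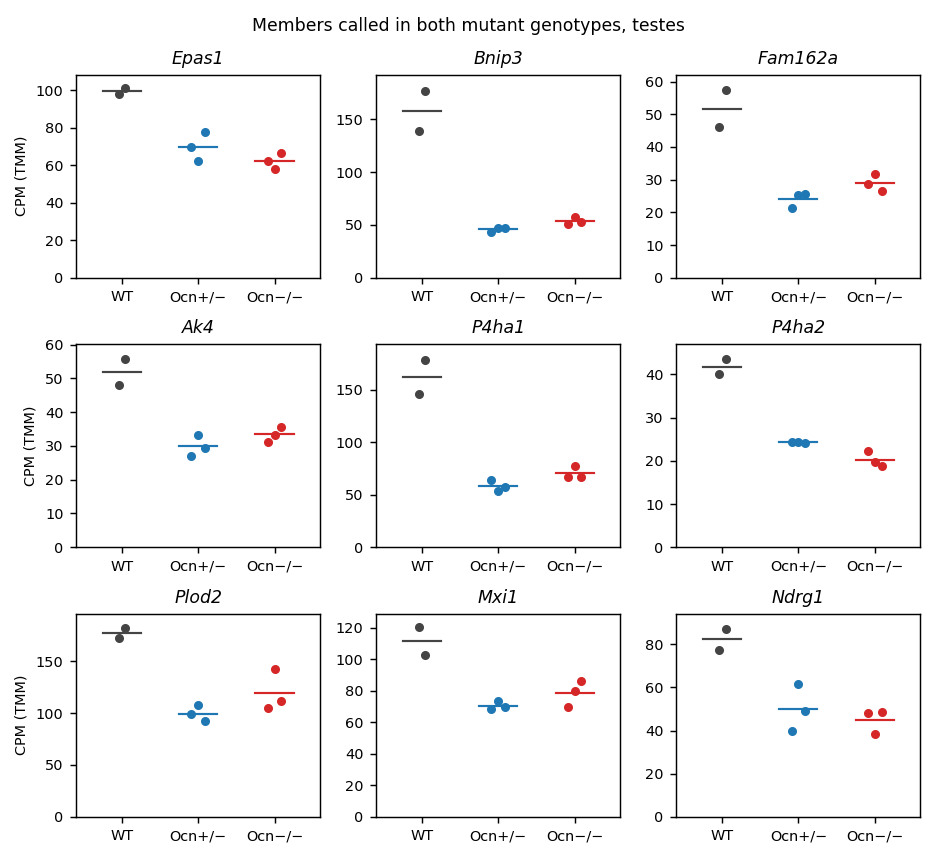
CPM (TMM scaled) of the 9 genes called in both mutant genotypes in testes, 1 point per testis and a line at the mean of each genotype, on axes that start at 0. The 3 Ocn+/− and 3 Ocn−/− testes lie below the 2 WT testes in each panel.

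Among transcriptional and signaling targets *Mxi1* and *Ndrg1* were called in both mutant genotypes. *Mxi1* (chromosome 19, 53298852 to 53364241), which competes with MYC for their common partner, was measured at 120.1 and 103 CPM in WT, 68.2, 73.7 and 69.6 CPM in *Ocn*+/− and 69.6, 79.8 and 86.3 CPM in *Ocn*−/− testes. Against WT its log2 fold change was -0.66 ± 0.13 in *Ocn*+/− (adjusted p = 0.0069) and -0.50 ± 0.13 in *Ocn*−/− (adjusted p = 0.03). *Ndrg1* (chromosome 15, 66801166 to 66841835), a stress-responsive cytoplasmic protein, was measured at 77.5 and 87.3 CPM in WT, 39.98, 61.5 and 49.2 CPM in *Ocn*+/− and 48.0, 38.4 and 48.6 CPM in *Ocn*−/− testes. All mutant testes lay below WT. This gave a log2 fold change of -0.71 ± 0.17 in *Ocn*+/− (adjusted p = 0.0181) and -0.87 ± 0.17 in *Ocn*−/− (adjusted p = 0.00694). *Wsb1*, *Narf*, *Bhlhe40* and *Ankrd37* passed the test in neither genotype, and their log2 fold changes ran from -0.45 (*Narf*, *Ocn*+/−) to 0.23 (*Ankrd37*, *Ocn*−/−). The H3K9 demethylase gene *Kdm3a* was the called gene of the 4 in its group, at -0.49 ± 0.13 in *Ocn*−/− testes (adjusted p = 0.0413), and was not called in *Ocn*+/− testes (adjusted p = 0.0731). *Kdm4b*, *Kdm4c* and *Jmjd6*, the other dioxygenases of the JmjC family, ran from -0.22 to 0.30.

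Of the remaining targets, *Angptl4* was the gene called higher, in *Ocn*−/− testes. *Angptl4*, a secreted inhibitor of lipoprotein lipase that is induced by low oxygen and also by fatty acids, was measured at 20.2 and 10.7 CPM in WT, 37.6, 20.9 and 29.1 CPM in *Ocn*+/− and 38.3, 36.3 and 28.6 CPM in *Ocn*−/− testes. All 6 mutant testes were above both WT testes, the lowest of them only just. In log2 units *Angptl4* changed by 0.92 ± 0.29 in *Ocn*+/− (adjusted p = 0.0679) and 1.15 ± 0.29 in *Ocn*−/− (adjusted p = 0.0376). Its value in *Ocn*−/− testes was 0.785 without WT 2 and 1.69 without WT 1. *Ero1a*, which makes disulfide bonds in the endoplasmic reticulum, fell in *Ocn*+/− testes by 0.74 (adjusted p = 0.00394) and had -0.40 ± 0.13 in *Ocn*−/− testes (adjusted p = 0.0755). *Gys1*, the glycogen synthase of muscle and other tissues, fell in *Ocn*+/− testes by 0.68 (adjusted p = 0.0406). The carbonic anhydrases *Car9* and *Car12*, the secreted proteins *Stc2* and *Mif*, the glycogen branching enzyme *Gbe1*, the selenium-binding protein *Selenbp1*, the lipoprotein receptor *Vldlr* and the liprin *Ppfia4* were called in neither genotype. *Car9* was near its detection limit, at 2.72 and 2.78 CPM in WT and 0.637 to 1.66 CPM in mutant testes, all 6 of which lay below WT.

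These calls depend on the 2 WT testes. Without WT 2, 3 genes were called in *Ocn*+/− (*Bnip3*, *P4ha1* and *Mxi1*) and 2 in *Ocn*−/− testes (*Bnip3* and *P4ha1*), against 0.691% and 0.498% of all genes in either direction, and without WT 1 there were 7 in each, against 0.766% and 1.35%. In those fits the lone WT testis is assumed to vary like the other groups. Without *Ocn*+/− testis 1 the count in *Ocn*+/− was 8, against 2.16% of all genes, and without *Ocn*−/− testis 1 that in *Ocn*−/− was 9, against 2.51%. Some summed cell type markers also differed in level between WT and mutant testes. The summed level of the 6 endothelial markers was 446 to 462 CPM in WT, 294 to 349 in *Ocn*+/− and 289.8 to 308 in *Ocn*−/− testes, with 2 and 4 of the 6 called lower. The 6 Leydig cell markers summed to 1691 to 1772, 714 to 1249 and 742 to 1134 CPM, with 1 of 6 called lower in each genotype. The 6 neutrophil markers summed to 40.6 to 66.3, 5.05 to 13.8 and 3.44 to 10.6 CPM, with 3 and 4 of the 5 tested called lower. Erythroid markers summed to 2600 to 6865, 865 to 3943 and 1316 to 2517 CPM, with 0 of 6 tested called. Smooth muscle and peritubular markers summed to 901 to 1115, 773 to 981 and 662 to 870.3 CPM, with 0 of 5 called and no overlap of *Ocn*−/− with WT. Macrophage markers summed to 68.8 to 70.0, 75.7 to 105 and 38.8 to 75.5 CPM, with 1 of 6 called higher in *Ocn*+/− testes and 0 in *Ocn*−/− testes. The sums of the lists for brain glia and choroid plexus were also below WT in all 6 mutant testes, the largest sum being that of the oligodendrocyte lineage list with 1097 to 1113, 768 to 923 and 895 to 903 CPM. Called lower in *Ocn*+/− and *Ocn*−/− testes were 1 and 0 of 3 tested genes of that list, 0 and 1 of 4 of the radial glia and astrocyte list and 1 and 1 of 2 of the choroid plexus list. Neuron markers summed to 25.2 to 30.1, 29.1 to 45.3 and 36.9 to 41.3 CPM, with 0 of 3 tested called, and forebrain and hippocampus markers to 114 to 114, 109.7 to 153 and 124 to 202 CPM, with 0 and 1 of 4 tested called higher. No gene of these lists was at 0 in all testes, and their part in the HIF target values was not tested. The sums of Sertoli and germ cell markers overlapped between WT and mutant testes, with 1 of 6 Sertoli markers called higher in each genotype and 0 of 4 tested germ cell markers called. Adipocyte marker sums overlapped too, with 1 of 3 tested called lower in each genotype and *Lep* at 0 in all testes.

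The promoters of the genes that fell in both mutant genotypes are shown because HIF binds a short core, ACGTG or GCGTG, beside its targets. Below are the 250 bases before a RefSeq transcription start of the 6 such genes with a promoter entry (table build GRCm38.p6, each placed in GRCm39 by its 1 exact match). They are written 5′ to 3′ on the strand of the gene, with the core on either strand in capitals.
Bnip3, chr7:138511236-138511485, minus strand: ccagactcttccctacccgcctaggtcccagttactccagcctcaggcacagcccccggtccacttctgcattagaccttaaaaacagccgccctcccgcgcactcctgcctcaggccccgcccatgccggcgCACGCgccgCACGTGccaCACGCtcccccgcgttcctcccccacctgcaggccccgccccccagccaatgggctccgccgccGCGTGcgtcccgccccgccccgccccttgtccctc
P4ha1, chr10:59158868-59159117, plus strand: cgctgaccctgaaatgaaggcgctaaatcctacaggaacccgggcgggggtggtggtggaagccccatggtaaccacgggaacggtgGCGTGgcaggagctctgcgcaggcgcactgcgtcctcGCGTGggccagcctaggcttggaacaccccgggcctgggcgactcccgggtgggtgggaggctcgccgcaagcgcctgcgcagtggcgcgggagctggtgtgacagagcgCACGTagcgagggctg
Fam162a, chr16:35891932-35892181, minus strand: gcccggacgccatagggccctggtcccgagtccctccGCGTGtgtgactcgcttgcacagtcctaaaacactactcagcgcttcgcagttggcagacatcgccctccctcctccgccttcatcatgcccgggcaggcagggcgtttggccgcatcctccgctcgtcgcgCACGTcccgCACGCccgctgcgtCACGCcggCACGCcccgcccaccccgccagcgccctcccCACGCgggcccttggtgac
P4ha2, chr11:53991500-53991749, plus strand: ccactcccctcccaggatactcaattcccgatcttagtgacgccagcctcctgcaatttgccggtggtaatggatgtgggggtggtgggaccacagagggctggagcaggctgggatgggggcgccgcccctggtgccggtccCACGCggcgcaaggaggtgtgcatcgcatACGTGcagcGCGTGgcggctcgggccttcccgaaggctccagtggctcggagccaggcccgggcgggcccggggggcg
Ak4, chr4:101276236-101276485, plus strand: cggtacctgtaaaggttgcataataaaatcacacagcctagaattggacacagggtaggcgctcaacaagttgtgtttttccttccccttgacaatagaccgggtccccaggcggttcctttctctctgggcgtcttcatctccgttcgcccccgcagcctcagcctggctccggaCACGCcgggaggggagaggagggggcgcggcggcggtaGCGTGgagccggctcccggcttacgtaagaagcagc
Mxi1, chr19:53317594-53317843, plus strand: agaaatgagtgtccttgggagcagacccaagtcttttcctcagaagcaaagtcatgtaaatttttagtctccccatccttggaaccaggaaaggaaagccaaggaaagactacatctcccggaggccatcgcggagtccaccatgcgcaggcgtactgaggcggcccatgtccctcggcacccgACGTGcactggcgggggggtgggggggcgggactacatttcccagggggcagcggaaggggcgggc
*Bnip3* has 5 matches, the palindrome in its window counting on both strands, and *Fam162a* has 6. *P4ha1* and *P4ha2* have 3 matches each, *Ak4* has 2 and *Mxi1* has 1. The nearest match lies 16 bases before the start in *P4ha1* and 69 bases before it in *P4ha2*. Of the 42 genes 33 have an entry, and 24 of those windows (72.7%) hold ACGTG or GCGTG on either strand, against 38.6% of 32851 windows of the same length in the table. The first share takes 1 window per gene and the second all entries, and over all entries of the 42 genes 30 of 45 hold a match. With ACGTG alone the shares are 48.5% and 16.6%. Both cores contain CG, and the windows compared were not matched for base composition. The 42 genes were listed as HIF factors and targets, so the choice of the list could by itself raise the share. Of the genes that were called in no mutant genotype of either tissue, 9 of 15 hold a match. A match is a run of letters and does not show binding.

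In forebrain *Hif3a* had the largest fall of the genes called in both mutant genotypes. It stood at 0.238 of its WT level in *Ocn*+/− and 0.310 in *Ocn*−/− forebrains. *P4ha1*, *P4ha2*, *Bnip3*, *Kdm3a*, *Narf*, *Wsb1* and *Ndrg1* were also lower in both, while *Angptl4* rose more than 2-fold. Of the 41 genes tested (*Car9* had too few counts) 8 were lower and 1 higher in *Ocn*+/− forebrains, against 2.68% and 1.21% of the 16076 genes tested. In *Ocn*−/− forebrains 11 were lower and 2 higher, against 3.05% and 1.8%. The median log2 fold change of the 41 genes was -0.16 and -0.27, and that of all genes was 0.0059 and 0.0061. Below 0 stood 34 and 33 of the 41. Both mutant genotypes share the 3 WT forebrains.

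*Hif3a* was measured at 13.7, 17.2 and 24.6 CPM in WT, 5.34, 3.95 and 3.63 CPM in *Ocn*+/− and 7.19, 4.76 and 4.97 CPM in *Ocn*−/− forebrains. Each of the 6 mutant forebrains had less than the lowest WT forebrain, and WT 3 was the highest. The change amounted, in log2 units, to -2.07 ± 0.24 in *Ocn*+/− (adjusted p = 6.12e-05) and -1.69 ± 0.23 in *Ocn*−/− (adjusted p = 0.000475). Without WT 3 these were -1.82 and -1.45, with an adjusted p of 0.000787 and 0.00528. The other subunits did not pass the test in the fit of all 9 forebrains. *Epas1*, at 45.3, 49.0 and 68.5 CPM in WT, 39.6, 34.2 and 40.5 CPM in *Ocn*+/− and 35.3, 38.5 and 46.1 CPM in *Ocn*−/− forebrains, had log2 fold changes of -0.49 ± 0.14 in *Ocn*+/− (adjusted p = 0.0639) and -0.43 ± 0.14 in *Ocn*−/− (adjusted p = 0.0931). Without WT 3 they were -0.30 and -0.23, and without WT 1 they were -0.61 and -0.54 (adjusted p = 0.0342 and 0.0458). *Epas1* passed the threshold in 7 of 17 alternatives in *Ocn*+/− and in 4 of 17 in *Ocn*−/− forebrains. *Hif1a* had -0.07 ± 0.08 in *Ocn*+/− (adjusted p = 0.692) and -0.12 ± 0.08 in *Ocn*−/− (adjusted p = 0.422), *Arnt* had -0.34 ± 0.11 in *Ocn*+/− (adjusted p = 0.083) and -0.28 ± 0.11 in *Ocn*−/− (adjusted p = 0.149) and *Arnt2* had 0.15 ± 0.08 in *Ocn*+/− (adjusted p = 0.289) and 0.06 ± 0.08 in *Ocn*−/− (adjusted p = 0.706). Of the sensors, *Egln2* rose in *Ocn*−/− forebrains, with log2 fold changes of 0.34 ± 0.10 in *Ocn*+/− (adjusted p = 0.064) and 0.38 ± 0.10 in *Ocn*−/− (adjusted p = 0.0357). *Egln1* had -0.13 ± 0.09 in *Ocn*+/− (adjusted p = 0.42) and -0.24 ± 0.09 in *Ocn*−/− (adjusted p = 0.113) and *Egln3* had -0.09 ± 0.13 in *Ocn*+/− (adjusted p = 0.726) and 0.13 ± 0.13 in *Ocn*−/− (adjusted p = 0.589). *Vhl* had -0.15 ± 0.08 in *Ocn*+/− (adjusted p = 0.339) and -0.04 ± 0.08 in *Ocn*−/− (adjusted p = 0.838) and *Hif1an* had -0.29 ± 0.10 in *Ocn*+/− (adjusted p = 0.114) and -0.13 ± 0.10 in *Ocn*−/− (adjusted p = 0.48).

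Among the mitochondrial targets of the forebrain, *Bnip3* was the 1 called gene of 5, and its fall was smaller than in testes. It was measured at 46.0, 57.6 and 65.3 CPM in WT, 39.7, 38.0 and 37.3 CPM in *Ocn*+/− and 38.0, 34.4 and 34.9 CPM in *Ocn*−/− forebrains, so that the WT forebrains were the 3 highest. The log2 fold change was -0.54 ± 0.12 in *Ocn*+/− (adjusted p = 0.0143) and -0.64 ± 0.12 in *Ocn*−/− (adjusted p = 0.00461). Without WT 3 it was -0.43 in *Ocn*+/− (adjusted p = 0.0829) and -0.53 in *Ocn*−/− forebrains (adjusted p = 0.0328). The collagen prolyl hydroxylase genes fell in this tissue too. *P4ha1* was measured at 28.0, 40.9 and 47.9 CPM in WT, 23.8, 17.5 and 19.3 CPM in *Ocn*+/− and 24.4, 21.6 and 21.8 CPM in *Ocn*−/− forebrains, with WT 1 closest to the mutants. On the log2 scale the change was -0.92 ± 0.17 in *Ocn*+/− (adjusted p = 0.00616) and -0.76 ± 0.17 in *Ocn*−/− (adjusted p = 0.017). Without WT 3 these were -0.75 and -0.59, with an adjusted p of 0.0373 and 0.094. *P4ha2* was measured at 9.91, 7.83 and 11.6 CPM in WT, 4.94, 6.51 and 4.70 CPM in *Ocn*+/− and 5.03, 4.55 and 5.12 CPM in *Ocn*−/− forebrains, without overlap. Against WT its log2 fold change was -0.85 ± 0.21 in *Ocn*+/− (adjusted p = 0.0282) and -0.98 ± 0.21 in *Ocn*−/− (adjusted p = 0.0122). Without WT 3 these were -0.73 and -0.86, with an adjusted p of 0.131 and 0.0704. The other 4 genes of the collagen group, *Plod1*, *Plod2*, *Lox* and *Loxl2*, lay between -0.59 and -0.13 and did not pass the test.

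Of the 6 transcriptional and signaling targets, 3 were called in *Ocn*+/− and 4 in *Ocn*−/− forebrains. *Narf* (chromosome 11, 121127532 to 121149337), a protein that recognizes prenylated prelamin A, was measured at 96.8, 97.3 and 97.8 CPM in WT, 67.6, 61.8 and 62.2 CPM in *Ocn*+/− and 72.6, 73.5 and 67.8 CPM in *Ocn*−/− forebrains. The WT forebrains differed by about 1 CPM and stood far above all mutants. This gave a log2 fold change of -0.61 ± 0.08 in *Ocn*+/− (adjusted p = 0.000541) and -0.45 ± 0.08 in *Ocn*−/− (adjusted p = 0.00508). *Wsb1* (chromosome 11, 79130198 to 79145531), a substrate receptor of a ubiquitin ligase, was measured at 189, 169 and 189 CPM in WT, 138, 123 and 128 CPM in *Ocn*+/− and 143, 123 and 116 CPM in *Ocn*−/− forebrains. The change amounted, in log2 units, to -0.49 ± 0.09 in *Ocn*+/− (adjusted p = 0.00363) and -0.51 ± 0.09 in *Ocn*−/− (adjusted p = 0.00283). *Ndrg1* was measured at 132, 156 and 136 CPM in WT, 109.5, 98.0 and 108 CPM in *Ocn*+/− and 119, 96.0 and 108 CPM in *Ocn*−/− forebrains, without overlap. The log2 fold change was -0.43 ± 0.09 in *Ocn*+/− (adjusted p = 0.0156) and -0.39 ± 0.09 in *Ocn*−/− (adjusted p = 0.0219). Without WT 2 the adjusted p was 0.0763 and 0.109, and with library size alone it was 0.0952 and 0.134. *Mxi1* fell in *Ocn*−/− forebrains by 0.42 (adjusted p = 0.0363) and had -0.32 ± 0.11 in *Ocn*+/− forebrains (adjusted p = 0.107). *Kdm3a* (chromosome 6, 71565956 to 71610472) was measured at 57.9, 55.1 and 73.1 CPM in WT, 40.6, 43.9 and 38.6 CPM in *Ocn*+/− and 44.0, 40.7 and 38.9 CPM in *Ocn*−/− forebrains, and every mutant lay below WT. On the log2 scale the change was -0.59 ± 0.11 in *Ocn*+/− (adjusted p = 0.00588) and -0.58 ± 0.11 in *Ocn*−/− (adjusted p = 0.00612). The other genes of its group, *Kdm4b*, *Kdm4c* and *Jmjd6*, were not called in forebrain. *Kdm4c* had 16.5 ± 2.47 CPM (SD, n = 3) in WT, 19.9 ± 3.38 in *Ocn*+/− and 23.2 ± 1.34 in *Ocn*−/− forebrains.

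**Figure D3:**
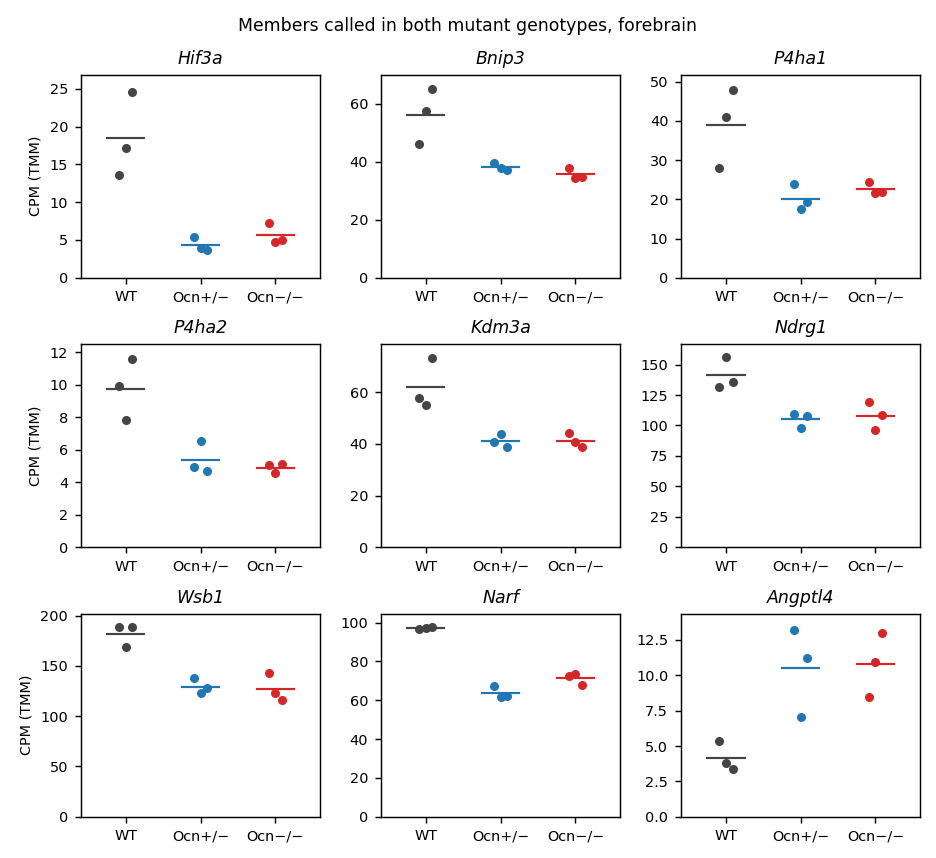
CPM (TMM scaled) of the 9 genes called in both mutant genotypes in forebrain, 1 point per forebrain and a line at the mean of each genotype, on axes that start at 0. Angptl4 is higher and the other 8 genes are lower in the 6 mutant forebrains than in the 3 WT forebrains.

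*Angptl4* (chromosome 17, 33992724 to 34000804) was measured at 5.34, 3.80 and 3.38 CPM in WT, 13.2, 7.05 and 11.2 CPM in *Ocn*+/− and 8.47, 10.9 and 13.0 CPM in *Ocn*−/− forebrains. All 6 mutant forebrains were above WT, although the level was low. Against WT its log2 fold change was 1.28 ± 0.25 in *Ocn*+/− (adjusted p = 0.00849) and 1.32 ± 0.25 in *Ocn*−/− (adjusted p = 0.00663). Without WT 3 these were 1.18 and 1.22, with an adjusted p of 0.0624 and 0.051. *Car12*, a membrane carbonic anhydrase, fell in *Ocn*−/− forebrains from 16.5 ± 2.44 CPM (SD, n = 3) to 8.41 ± 2.49 CPM (SD, n = 3) (log2 fold change -0.96 ± 0.21, adjusted p = 0.0126). *Ero1a* fell there by 0.49 (adjusted p = 0.0375). *Car9* had at most 0.958 CPM in a forebrain and was listed at 0 in WT 1. *Stc2*, *Mif*, *Gbe1*, *Gys1*, *Selenbp1*, *Vldlr* and *Ppfia4* ran from -0.61 to 0.22 and were not called.

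Without forebrain WT 3, 6 genes were called in *Ocn*+/− forebrains (*Hif3a*, *P4ha1*, *Kdm3a*, *Ndrg1*, *Wsb1* and *Narf*) and 5 in *Ocn*−/− forebrains (*Hif3a*, *Bnip3*, *Kdm3a*, *Wsb1* and *Narf*), all of them lower, against 1.11% and 1.15% of all genes in either direction. In *Ocn*−/− forebrains the log2 fold change without WT 3 was 0.36 for *Egln2* (adjusted p = 0.111), -0.36 for *Mxi1* (adjusted p = 0.164) and -0.86 for *Car12* (adjusted p = 0.0804). It was -0.33 for *Ero1a* (adjusted p = 0.201) and -0.41 for *Ndrg1* (adjusted p = 0.0619). Without WT 2, or without *Ocn*−/− forebrain 2, there were 8 in *Ocn*−/− forebrains, against 2.22% and 1.69%. Summed cell type and region markers are given beside these values. The 6 forebrain and hippocampus markers summed to 839.5 to 1156 CPM in WT, 657 to 756 in *Ocn*+/− and 696 to 762 in *Ocn*−/− forebrains, with 0 and 1 called lower. The 5 olfactory bulb markers summed to 31.3 to 36.2, 99.5 to 127 and 30.6 to 86.1 CPM, with 0 called. Erythroid markers summed to 523 to 723, 357 to 408 and 487 to 599 CPM, with 3 and 1 of 6 tested called lower. Choroid plexus markers summed to 570 to 740, 576 to 859 and 322 to 528 CPM, with 0 and 1 of 5 called lower. Radial glia and astrocyte markers summed to 692 to 783, 878 to 909 and 766 to 1007 CPM, with 1 of 5 called higher in each genotype. Smooth muscle markers summed to 13.0 to 14.1, 9.14 to 12.7 and 9.54 to 11.4 CPM, with 0 of 4 tested called. No gene of these 6 lists was at 0 in all forebrains, and their part in the values was not tested. The summed endothelial markers overlapped, at 127 to 139 CPM in WT, 116 to 140 in *Ocn*+/− and 111 to 156 in *Ocn*−/− forebrains, with 1 and 0 of 6 called lower. Macrophage and microglia sums and oligodendrocyte lineage sums overlapped as well, with 1 of 5 tested genes of each list called higher in each genotype. So did neuron marker sums, with 1 and 0 of 6 called higher.

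With scaling by the total count in place of TMM, 12 of the 42 genes were lower and 2 higher in *Ocn*+/− testes, and 12 lower and 2 higher in *Ocn*−/− testes, against 9.48% and 7.05% of all genes in either direction. In forebrain the counts were 6 lower and 1 higher, and 7 lower and 2 higher, against 2.3% and 4%. The calls lost were those of *Gys1* in *Ocn*+/− and of *Loxl2* and *Kdm3a* in *Ocn*−/− testes, of *P4ha2* and *Ndrg1* in *Ocn*+/− forebrains, and of *Mxi1*, *Ndrg1*, *Narf* and *Ero1a* in *Ocn*−/− forebrains. The share of higher genes among all genes called moved with this scaling from 47.2% to 68.1% and from 45.1% to 65.2% in *Ocn*+/− and *Ocn*−/− testes. In forebrain it moved from 31% to 47.7% and from 37.2% to 64.5%.

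*Ocn*−/− pups were next compared with *Ocn*+/− pups, which have mothers of the same genotype. No gene of the 42 was called in testes or of the 41 in forebrain, where 0% and 0.00622% of all genes were called, and DESeq2 called none of them either. At an unadjusted p under 0.05 there were 6 of 42 in testes, beside 1881 of all 16361 genes, and 1 of 41 in forebrain, beside 515 of 16076, shares near those of all genes. The log2 differences (*Ocn*−/− minus *Ocn*+/−) ran from -0.57 (*Egln3*) to 0.52 (*Car12*) in testes and from -0.51 (*Selenbp1*) to 0.38 (*Hif3a*) in forebrain. For *Bnip3* the difference was 0.23 (95% interval -0.03 to 0.49) in testes and -0.10 (95% interval -0.34 to 0.14) in forebrain. For *P4ha1* it was 0.28 (95% interval 0.02 to 0.54) and 0.16 (95% interval -0.20 to 0.51), and for *Hif3a* in forebrain it was 0.38 (95% interval -0.13 to 0.89). The interval lay within 1 log2 unit on both sides of 0 for 37 of 42 genes in testes and 40 of 41 in forebrain (a 2-fold change). The median half-width of the intervals was 0.317 and 0.269.

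The mean effect of both mutant genotypes was then compared between the tissues in a joint fit of all 17 libraries. It differed for 4 of the 42 genes, where 2.96% of 17800 genes were called. *Bnip3* fell more in testes than in forebrain, the forebrain effect minus the testis effect being 1.08 ± 0.16 (adjusted p = 0.000415). *Egln3*, at 21.1, 20.9 and 17.4 CPM in WT, 19.1, 19.1 and 18.1 CPM in *Ocn*+/− and 21.6, 23.0 and 20.8 CPM in *Ocn*−/− forebrains, showed overlapping genotypes in forebrain, and its difference was 1.00 ± 0.22 (adjusted p = 0.0143). *Ak4*, at 15.1, 16.0 and 17.04 CPM in WT, 15.5, 16.6 and 16.1 CPM in *Ocn*+/− and 17.6, 21.5 and 14.3 CPM in *Ocn*−/− forebrains, overlapped there as well, and its difference was 0.81 ± 0.19 (adjusted p = 0.0223). *Fam162a* was measured at 19.5, 20.3 and 17.6 CPM in WT, 16.0, 15.6 and 15.0 CPM in *Ocn*+/− and 15.7, 17.5 and 13.6 CPM in *Ocn*−/− forebrains, where 1 *Ocn*−/− forebrain came close to WT. Its difference was 0.68 ± 0.18 (adjusted p = 0.0432). Of these genes 3, *Bnip3*, *Fam162a* and *Ak4*, belong to the mitochondrial group. For *Hif3a*, which was called in forebrain alone, the difference was -1.33 ± 0.49 and did not pass the test (adjusted p = 0.166), nor did it for *Wsb1* (-0.35 ± 0.13, adjusted p = 0.139) or *Narf* (-0.14 ± 0.17, adjusted p = 0.707). Without testis WT 2 *Bnip3* alone was called, and without testis WT 1, forebrain WT 1 or forebrain WT 2 there were 2 calls, against 0.501%, 0.694%, 1.55% and 1.59% of all genes.

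**Figure D4:**
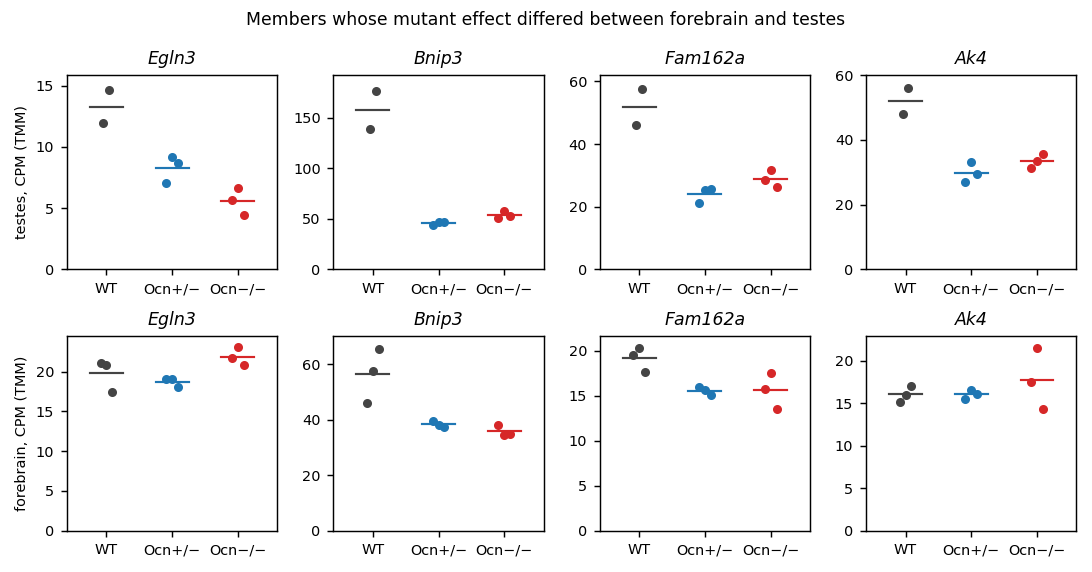
CPM (TMM scaled) of the 4 genes whose mutant effect differed between tissues, testes in the upper row and forebrain in the lower row, 1 point per library and a line at the mean, on axes that start at 0. In testes the mutants lie below WT for each gene, and in forebrain Egln3 and Ak4 overlap between genotypes.

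Between the tissues themselves, 38 of the 42 genes differed over the mean of the 3 genotypes, 11 higher and 27 lower in forebrain, where 39.9% and 44.5% of all genes did. All 6 collagen-modifying genes were lower in forebrain, with log2 differences (forebrain minus testes) from -3.77 for *Loxl2* to -1.42 for *P4ha1*. Per kilobase of transcript, *Lox* stood at 52.4 ± 21.4 CPM in testes (SD, n = 8) and 6.27 ± 1.57 CPM in forebrain (SD, n = 9). All 3 alpha subunits were lower in forebrain, with log2 differences of -0.72 for *Hif1a*, -0.48 for *Epas1* and -2.62 for *Hif3a*. The beta subunits traded places. Per kilobase *Arnt* had 21.5 ± 0.9799 CPM in testes and 6.66 ± 0.821 in forebrain, and *Arnt2* had 11.5 ± 1.84 and 73.0 ± 5.48. *Hif1a*, at 35.1 ± 3.94 CPM per kilobase in testes, was above *Arnt* there, whereas in forebrain it had 21.5 ± 1.52 and *Arnt2* was above it. Of the 5 sensors *Egln1*, *Egln2*, *Egln3* and *Vhl* were higher in forebrain and *Hif1an* was lower. *Egln3* had the largest difference of them, 1.57 ± 0.10 on the log2 scale. *Bnip3l*, *Ankrd37*, *Wsb1* and *Kdm4c* did not differ past the threshold. TMM scaling centered all genes at -0.0871 in this comparison, library size alone at -0.404 and upper quartile scaling at -0.234, so values near 0 depend on the scaling. Library size alone called 10 of the 42 higher and 30 lower.

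**Figure D5:**
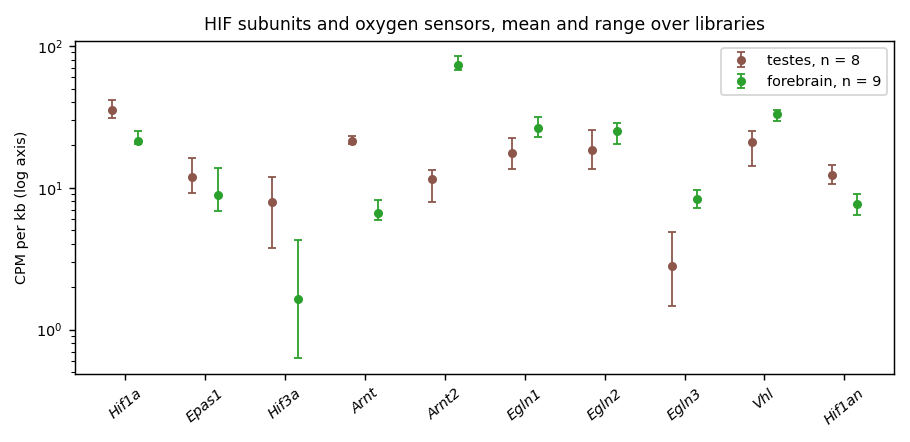
Mean and range over libraries of CPM per kilobase of transcript (log axis) for the HIF subunits and oxygen sensors, in 8 testes and 9 forebrains. Arnt is higher in testes and Arnt2 in forebrain, and the ranges of Hif3a are wide in both.

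The genes of the same pathway outside the 42 were counted from 2 lists. Of 21 glycolytic and VEGF hypoxia targets, 16 were called lower and 0 higher in *Ocn*+/− testes, while in *Ocn*−/− testes 15 were lower and 0 higher, where 4.36% and 3.09% of all genes were lower. In forebrain 10 were called lower in each mutant genotype and 0 higher, where 2.68% and 3.05% of all genes were lower. The median log2 fold change of the list was -0.83 and -0.90 in testes and -0.38 and -0.36 in forebrain. In testes *Ldha*, lactate dehydrogenase, changed by -1.54 and -1.49 in *Ocn*+/− and *Ocn*−/− pups, and the glycolytic enzymes *Pgk1*, *Eno1* and *Tpi1* by -1.57 and -1.50, -1.39 and -1.35, and -1.17 and -1.22. In forebrain the glucose transporter gene *Slc2a1* changed by -1.24 and -1.14, *Vegfa* by -1.15 and -1.22, *Eno1* by -0.75 and -0.75 and *Gpi1* by -0.83 and -0.92. Of 13 genes of the *Vhl* ubiquitin ligase and of HIF cofactors, 1 was called lower in *Ocn*+/− testes (*Hsp90aa1*, -0.47 ± 0.13) and 1 in *Ocn*−/− forebrains (*Siah1a*, -0.41 ± 0.11), both named after their values were seen, and 0 in the other comparisons with WT. With 13 genes, 1 call is near the share of all genes called in either direction, 8.25% in *Ocn*+/− testes and 4.85% in *Ocn*−/− forebrains.

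Some of these genes share sequence with others, so that the counting of reads could have divided them. Of the 50-base stretches of the transcript, 61.9% in *Fam162a* occur in another gene on either strand, most often in *Wdr5b*, 60.9% in *Loxl2* (*Gm21451*), 28.7% in *Bnip3* (*Wdr31*) and 23.1% in *Ndrg1* (*Gm2895*). The share was highest in *Mif*, at 79.0% (*C230062I16Rik*). The strandedness of the libraries was not given in the sources used here, so reads of a gene and of one opposite to it could not be separated.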

How the data were processed

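RNA-seq libraries of 8 testes and 9 forebrains were analyzed, grouped by tissue and genotype from the sample labels. Poly-A RNA was selected, and libraries came from the NEBNext Ultra kit. Per the labels the authors used Trim Galore 0.6.6, STAR 2.7.8a and RSEM 1.3.3 with the mouse build GRCm39. They deposited the expected counts of RSEM per gene, not normalized, which assign a read that matches several genes in parts, and 9625 genes hold a value that is not whole. The annotation release was not given in the sources used here. Gene names were taken from GENCODE for GRCm39, where 54749 of 55359 identifiers were found. The others took up to 0.102% of a library.

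Expected counts were rounded, and each tissue was fitted with its 3 genotypes in edgeR 4.0.16 (R 4.3.3), with TMM scaling, filterByExpr and robust quasi-likelihood tests without covariates. A joint fit of 17 libraries gave the differences between tissues. Tests were two-sided, with Benjamini-Hochberg adjustment over all genes of a fit, and a gene was called at an adjusted p under 0.05. CPM, as edgeR gives them, are the deposited counts relative to the TMM library size, and CPM per kilobase divides them by the length of the canonical transcript. Intervals are 95% intervals of the fit. All 42 genes were accounted for, some that were not called only by the counts of their group. Genes called in both mutant genotypes of a tissue, or in the difference between tissues, were given in every library, HIF subunits and sensors whatever their p, and at most 4 genes per pathway list and tissue. The 42 genes, the lists and the rules were chosen with earlier results of these data known. Depth limits what low genes such as *Car9* can show. The alternatives were other scalings, filters and tests (DESeq2 1.42.0, likelihood ratio), fits of only the 2 genotypes compared, a replicate block and each library left out in turn. No column of the table was left out.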

Additional observations from a re-analysis of the deposited data

Results flagged for a closer look

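For 4 genes the mean effect of both mutant genotypes differed between forebrain and testes by a test of the difference itself. On the log2 scale, forebrain effect minus testis effect, the values were 1.08 ± 0.16 for *Bnip3*, 1.00 ± 0.22 for *Egln3*, 0.81 ± 0.19 for *Ak4* and 0.68 ± 0.18 for *Fam162a*, with adjusted p of 0.000415, 0.0143, 0.0223 and 0.0432. *Bnip3* passed the threshold in all 24 alternatives. *Egln3* missed it in 1, *Ak4* in 4 and *Fam162a* in 14 of 24, and without testis WT 2 their adjusted p was 0.165, 0.186 and 0.314. The cause of the differences was not tested.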

How the results depend on the processing

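Counts of called genes stayed within 1.5 times the reported count under each other scaling, filter and test, with 14 to 22 in *Ocn*+/− and in *Ocn*−/− testes, 7 to 13 and 9 to 17 in forebrain, 3 to 6 for the difference between tissues, 37 to 40 between tissues and 0 between *Ocn*−/− and *Ocn*+/− pups. Leaving out 1 library at a time gave 3 to 20 in *Ocn*+/− testes, 2 to 17 in *Ocn*−/− testes, 6 to 12 and 5 to 14 in forebrain and 1 to 5 for the difference between tissues. Of the genes called, 2 of 15 in each testis comparison, 5 of 9 in *Ocn*+/− and 4 of 13 in *Ocn*−/− forebrains and 1 of 4 in the difference between tissues kept an adjusted p under 0.05 in every alternative, and none of them changed direction. The deviations of same-numbered libraries of different genotypes correlated by -0.0937 to 0.0871 in testes and by -0.0366 to 0.146 in forebrain, where 2 of 9 pairs were over 0.1, so the numbers were not taken to pair the libraries, and the replicate block gave 15 and 15 calls in testes, 10 and 17 in forebrain, 4 for the difference between tissues, 38 between tissues and 0 between mutants.

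Values near 0 that were not called changed sign. With library size alone the log2 fold change of *Hif1a* was 0.0305 and that of *Arnt* 0.0761 in *Ocn*−/− testes, that of *Hif1a* 0.0217 in *Ocn*+/− forebrains and that of *Vhl* 0.0661 in *Ocn*−/− forebrains. For *Arnt* in *Ocn*−/− testes DESeq2 gave 0.00575, the replicate block 0.0274 and the fit of only the 2 genotypes 0.0119. With 1 library left out, *Arnt* ran from -0.003752 to 0.01491, *Hif1a* from -0.1611 to 0.07377 and *Hif1an* from -0.0268 to 0.181 in *Ocn*−/− testes, and *Hif1a* from -0.1313 to 0.01717 in *Ocn*+/− forebrains. The cause was not tested.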
